A study of Homo sapiens with 12 samples.

Results

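Receptors for chemoattractants and complement peptides were followed in MOLM-13, a cell line of human acute myeloid leukemia that carries an MLL-AF9 fusion. The 10 receptors were C3AR1, C5AR1, C5AR2, FPR1, FPR2, CXCR1, CXCR2, CXCR4, CCR1 and CCR2, and their transcript rows were picked by gene symbol and summed, a rule that itself uses no measured value. They are 10 of 46639 gene symbols in the table, and 9 of them were among the 10642 protein-coding genes with enough reads to be tested. FPR2 did not pass, and FPR1 and CXCR1 reached 10 normalised counts in 4 libraries each, namely all 3 DAC libraries and 1 DAC+ATRA library. Both therefore entered the test only through the groups in which they were high.

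RNA-seq gave 12 libraries, 3 in each of 4 groups. By their labels, one group had no drug, one had decitabine at 100 nM (DAC, a nucleoside analogue that blocks DNA methyltransferases), one had ATRA at 1 µM (all-trans retinoic acid, a ligand of nuclear retinoic acid receptors), and the last had the combination, DAC+ATRA. All groups shared a medium with 20% fetal calf serum and 5 ng/ml human GM-CSF, itself a myeloid growth factor. The labels give 96 h for untreated and 72 h for treated libraries, while the series' design text names a harvest at 72 h, so time and treatment cannot be told apart from the labels alone. The study's methods describe a shorter exposure to ATRA than to DAC, the labels the same number of days, and a vehicle control was not among the samples. The series' design text calls the libraries of this 1 cell line technical triplicates, so p-values measure the spread within 1 experiment.

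Depth was 8.95 to 11.9 M reads (M for mega) per untreated library, 4.67 to 6.95 M with DAC, 8.36 to 10.7 M with ATRA and 5.61 to 7.16 M with DAC+ATRA. The 6 myeloid markers fixed for the cell type (CD33, FLT3, MPO, LYZ, SPI1 and CEBPA) were all detected, and their summed level was 67903 to 76282 normalised counts in untreated, 180090 to 220670 in DAC, 20737 to 25754 in ATRA and 66817 to 71246 in DAC+ATRA libraries. Within it, LYZ had means of 41628, 153290, 6819 and 40819 in this order. The other 5 followed different patterns. MPO had means of 1513, 22033, 805 and 10424, FLT3 14027, 8281, 8243 and 7328, and CEBPA 15377, 12099, 6063 and 8969. CD33 had 372, 436, 549 and 679, and SPI1 341, 385, 403 and 413. The 6 neutrophil markers summed to 47.0 to 70.0 in untreated, 353 to 533 in DAC, 625 to 803 in ATRA and 2422 to 3335 in DAC+ATRA libraries, with 1 marker at 0 throughout. That sum is mostly 1 gene, the protease MMP9, with means of 14.3, 379, 604 and 2866, while CSF3R had means of 46.0, 40.5, 66.7 and 53.9, CEACAM8 0, 0, 14.4 and 15.7, and MMP8 and FCGR3B at most 2.48. The 6 monocyte markers summed to 2106 to 2307, 2501 to 2800, 1313 to 1355 and 1459 to 1584 in the same order, again with 1 marker at 0. They did not move together. FCGR1A had means of 1619, 2164, 409 and 692, while CSF1R had 566, 506, 924 and 840. CD14 had a mean of at most 10.6, and MRC1 and CD163 at most 5.37. All 4 erythroid markers stayed at 3 reads or fewer in every library. The T cell markers summed to at most 40.8, the B cell markers to at most 39.8, and the stromal and endothelial markers to at most 97.0, each with 1 gene at 0 throughout. These marker sums moved with the treatments that also moved the receptors, and their part in the receptor changes was not tested.

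All of these receptors are heptahelical membrane proteins, and all but C5AR2 signal through heterotrimeric G proteins, mostly of the Gi class. They steer phagocytes toward sites of infection or hold them in a niche. The anaphylatoxins C3a and C5a, released when complement is cleaved, bind C3AR1 and C5AR1, while C5AR2 binds C5a without coupling to G proteins in the usual way. FPR1 and FPR2 sense N-formyl peptides from bacteria and mitochondria. CXCR1 and CXCR2 bind CXCL8 (interleukin-8), CXCR4 binds CXCL12, which retains blasts and progenitors in the bone marrow, CCR1 binds CCL3 and CCL5, and CCR2 binds CCL2 and drives monocyte release from the marrow.

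Several of the genes are neighbours. On GRCh38 (GENCODE release 44), C5AR1 lies at chr19:47290023-47322066 and C5AR2 at chr19:47332175-47347329, both on the plus strand and 10.1 kb apart. FPR2 (chr19:51752026-51770531, plus strand) lies within the span of FPR1 (chr19:51745172-51804115, minus strand). CXCR2 (chr2:218125289-218137251, plus strand) and CXCR1 (chr2:218162841-218166962, minus strand) are 25.6 kb apart. CCR1 (chr3:46201711-46208313, minus strand) and CCR2 (chr3:46353864-46360940, plus strand) are 145.6 kb apart. CXCR4 lies at chr2:136114349-136119177 and C3AR1 at chr12:8056844-8066359, both on the minus strand.

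The promoters of the pairs C5AR1 and C5AR2, and CCR1 and CCR2, are shown because these pairs carried the largest changes, in opposite directions. Each covers 300 bases, 250 before and 50 after the start in RefSeq on GRCh38.p14, written 5′ to 3′ on the gene's strand, with each CpG dinucleotide, the site of DNA methylation, in capitals. The windows are chr19:47309611-47309910 for C5AR1, chr19:47331925-47332224 for the first start of C5AR2, chr3:46208264-46208563 for CCR1 and chr3:46353861-46354160 for CCR2.
C5AR1: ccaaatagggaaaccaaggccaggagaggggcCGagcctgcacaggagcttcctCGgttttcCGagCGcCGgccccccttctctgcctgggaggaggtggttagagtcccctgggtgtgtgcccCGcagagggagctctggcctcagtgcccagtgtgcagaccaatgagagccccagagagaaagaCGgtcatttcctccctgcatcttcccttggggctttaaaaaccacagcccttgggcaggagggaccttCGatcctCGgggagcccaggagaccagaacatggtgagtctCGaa
C5AR2: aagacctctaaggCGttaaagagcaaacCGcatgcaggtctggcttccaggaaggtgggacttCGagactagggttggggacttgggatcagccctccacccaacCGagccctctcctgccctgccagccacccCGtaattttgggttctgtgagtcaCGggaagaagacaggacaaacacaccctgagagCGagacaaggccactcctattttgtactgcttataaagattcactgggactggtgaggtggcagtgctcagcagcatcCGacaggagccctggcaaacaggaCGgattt
CCR1: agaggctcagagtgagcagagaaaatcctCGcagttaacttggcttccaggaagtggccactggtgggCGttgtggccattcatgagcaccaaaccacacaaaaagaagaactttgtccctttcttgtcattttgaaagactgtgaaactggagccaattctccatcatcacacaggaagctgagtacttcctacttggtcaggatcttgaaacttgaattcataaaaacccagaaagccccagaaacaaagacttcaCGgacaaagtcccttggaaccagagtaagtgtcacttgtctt
CCR2: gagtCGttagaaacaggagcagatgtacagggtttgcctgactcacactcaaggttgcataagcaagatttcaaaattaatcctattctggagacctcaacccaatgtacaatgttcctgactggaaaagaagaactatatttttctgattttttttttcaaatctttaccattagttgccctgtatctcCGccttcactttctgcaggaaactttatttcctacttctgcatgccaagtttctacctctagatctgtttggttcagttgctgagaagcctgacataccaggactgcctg

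The C5AR1 window holds 10 CpG and the C5AR2 window 9, against 3 for CCR1 and 2 for CCR2. The median over 35116 RefSeq promoters of the same length was 14. Across the 14 promoters listed for the 10 receptors, CpG numbers ran from 0 for FPR1 to 27 for one of 3 CXCR4 starts. The letters AGGTCA, a half-site of nuclear receptors, were searched on both strands and occurred in 13.83% of all promoters. Among the receptors they occurred for C3AR1 and for the second start of C5AR2. The letters GAGGAAGT, a core that ETS factors such as PU.1 bind, occurred in 2.59% of all promoters and, among the 14, at the second C5AR2 start. These are matches of letters only, and methylation was not measured here.

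Values are given as normalised counts, which are reads divided by a size factor of the library. They compare a gene between libraries but not one gene with another. In this bulk RNA, fewer expressing cells and less RNA per cell cannot be told apart.

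The complement receptors all fell with ATRA. C3AR1 stood at 1037, 1067 and 918 normalised counts in untreated libraries 1 to 3, at 1163, 1226 and 1349 with DAC, at 196, 271 and 206 with ATRA, and at 242, 234 and 249 with DAC+ATRA. All 6 libraries with ATRA lay below all 6 without it, whether or not DAC was present. ATRA lowered it 4.51-fold (log2 fold change -2.17, SE 0.13, limma adjusted p = 8.32e-11). For DAC+ATRA against untreated the log2 fold change was -2.05 (adjusted p = 2.2e-10). DAC alone left C3AR1 at a log2 fold change of 0.31, with a 95% interval of 0.04 to 0.57 and an adjusted p of 0.118. DAC+ATRA against ATRA gave 0.12, with an interval of -0.15 to 0.39 (adjusted p = 0.553).

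C5AR1, the main signalling receptor for C5a, rested on few reads. It measured 33.4, 34.9 and 25.7 normalised counts in untreated libraries, 125, 64.3 and 109 with DAC, 0, 0 and 2.51 with ATRA, and 9.80, 10.1 and 10.2 with DAC+ATRA. The 4 groups did not overlap, and their order was DAC, untreated, DAC+ATRA, ATRA. ATRA left 3 reads in 3 libraries against 127 reads in untreated, a ratio of normalised counts of 37.6 with a 95% counting interval of 12.6 to 185. The fitted log2 fold change was -4.40 (SE 0.45, limma adjusted p = 2.07e-07), which understates the change of a gene this low.

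With DAC alone, C5AR1 gave a log2 fold change of 1.59 (95% interval 0.65 to 2.53, limma adjusted p = 0.0202), short of the threshold of 0.01. The same difference passed with edgeR (adjusted p = 0.00064) and DESeq2 (adjusted p = 3.1e-06) on the recovered reads, and with limma without ATRA replicate 3 (adjusted p = 0.00408). In 19 of 24 alternative settings it stayed short of the threshold, with an adjusted p of up to 0.247 (pseudocount 0.1). The adjusted p was 0.0907 without DAC replicate 1 and 0.0135 with only the compared groups. DAC+ATRA lay below untreated by a log2 fold change of -1.54 (adjusted p = 0.00976), a call at the edge of the threshold that 13 of 24 alternative settings lost, with adjusted p from 0.000376 to 0.160. The settings that lost it included leaving out any 1 of the 3 untreated or the 3 DAC+ATRA libraries (adjusted p 0.0173 to 0.0411), and DAC replicate 1 (0.0129) or DAC replicate 2 (0.0102). Against ATRA alone, DAC+ATRA was higher by 2.86 (adjusted p = 0.000128), and the ratio of normalised counts was 12.3 (counting interval 3.76 to 63.3).

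C5AR2, the second C5a receptor, followed this order of means. It stood at 170, 164 and 206 normalised counts in untreated libraries, 307, 287 and 327 with DAC, 2.69, 0 and 0.836 with ATRA, and 9.80, 4.50 and 13.3 with DAC+ATRA. Here too no 2 groups overlapped. The ATRA libraries held 4 reads against 749 in untreated, a ratio of 166.5 with a counting interval of 64.8 to 613. This was the largest decrease among the receptors, with a fitted log2 fold change of -6.57 (SE 0.40, limma adjusted p = 1.25e-10).

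With DAC+ATRA, C5AR2 remained below untreated at -4.25 (adjusted p = 7.43e-08), a 19.0-fold decrease, but above ATRA alone at 2.32 (adjusted p = 0.000332). When the fit held the DAC+ATRA and ATRA libraries alone, the latter gave an adjusted p of 0.0168. The ratio of DAC+ATRA to ATRA was 8.50 in normalised counts (counting interval 2.92 to 33.7), from 24 against 4 reads. The DAC effect alone was 0.77 (95% interval -0.06 to 1.61, limma adjusted p = 0.213), although the 3 DAC libraries lay above the 3 untreated ones, and edgeR (adjusted p = 0.00796) and DESeq2 (adjusted p = 0.00034) on reads called it. It was not called in the other 22 of 24 settings, where the adjusted p reached 0.568 (pseudocount 0.1). With only the compared groups the adjusted p was 0.0123, and with a pseudocount of 5 it was 0.0433. For both C5a receptors, the main limma fit shares 1 estimate of spread over the 4 groups, including ATRA libraries of 0 to 3 reads. The part of this in the DAC results was not tested. C5AR2 has 2 transcript rows. ENST00000595464.3 held 89.2% of the untreated and 92.6% of the DAC level, and the shorter ENST00000600626.1 held no reads in any library with ATRA. The whole gene had only 4 reads in the ATRA and 24 in the DAC+ATRA libraries. A loss of the shorter transcript therefore cannot be told apart from the fall of the whole gene.

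**Figure D1:**
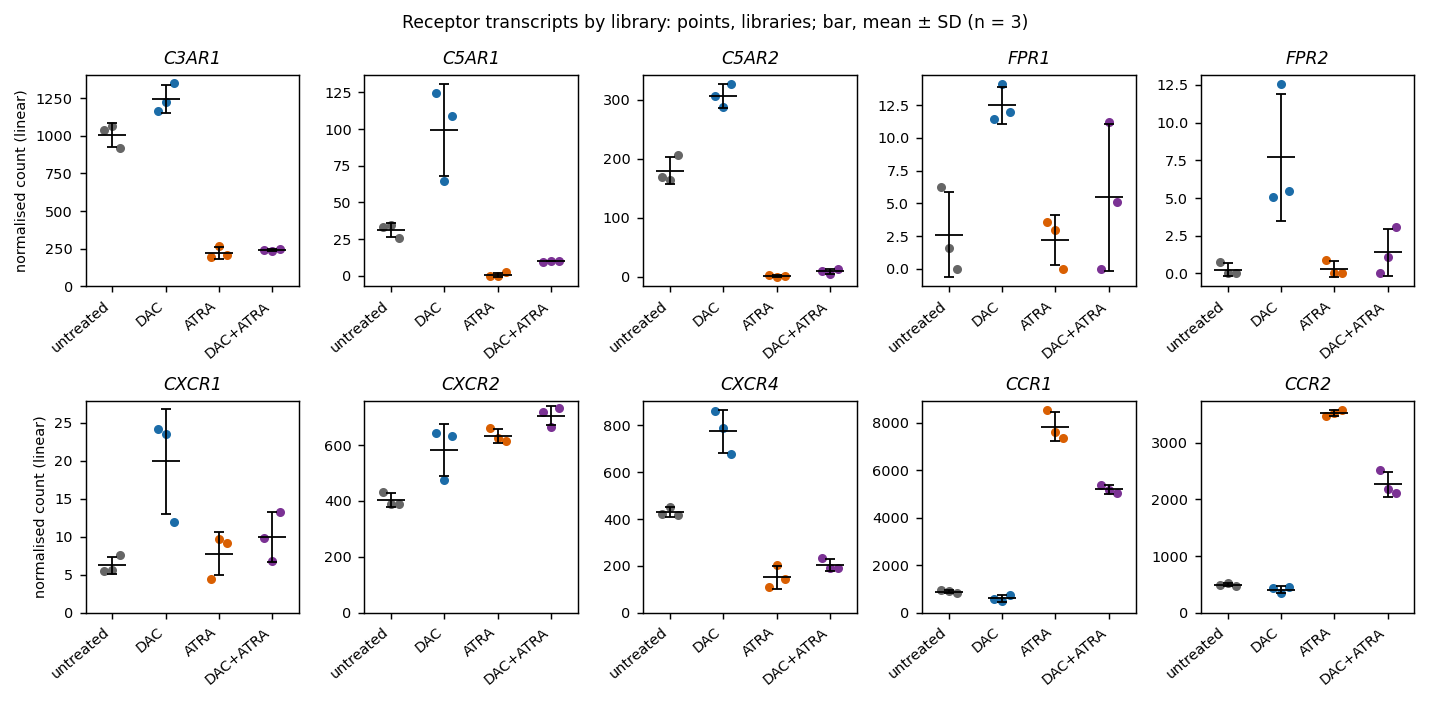
Normalised counts (linear y axis) of the 10 receptors in each library, with untreated in grey, DAC in blue, ATRA in orange and DAC+ATRA in purple, and with bars for the mean ± SD of 3 libraries. C3AR1, C5AR1, C5AR2 and CXCR4 are low in all 6 libraries with ATRA, CCR1 and CCR2 are high in them, and the FPR1, FPR2 and CXCR1 axes end below 30.

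The formyl peptide receptors were near the lower limit of detection. FPR1 measured 6.22, 1.62 and 0 normalised counts in untreated libraries, 11.4, 14.1 and 11.97 with DAC, 3.58, 2.98 and 0 with ATRA, and 0, 11.3 and 5.11 with DAC+ATRA. The DAC libraries lay above every other library, the nearest being DAC+ATRA replicate 2. The log2 fold change with DAC was 2.34 (95% interval 0.50 to 4.18, limma adjusted p = 0.0807) and did not pass the test. FPR1 entered that test only through libraries with DAC. FPR2 had 1, 0 and 0 reads in untreated libraries, 4, 8 and 5 with DAC, 1, 0 and 0 with ATRA, and 0, 1 and 3 with DAC+ATRA. Its DAC libraries also lay above all others, and the ratio of DAC to untreated was 29.8 in normalised counts, from 17 reads against 1, with a counting interval of 4.68 to 1247. FPR2 was not part of the main test, and in a fit without the filter on low values its log2 fold change with DAC was 2.74 (SE 0.53, limma adjusted p = 0.00286). FPR1 and FPR2 are close paralogs, and how reads shared between them were counted is not known.

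Of the CXCL8 receptors, CXCR2 passed the test with every treatment and CXCR1 with none. CXCR1 stood at 5.44, 5.68 and 7.53 normalised counts in untreated libraries, 24.2, 23.5 and 11.97 with DAC, 4.48, 9.67 and 9.20 with ATRA, and 9.80, 6.75 and 13.3 with DAC+ATRA. The DAC libraries lay above the untreated ones, while DAC replicate 3 fell within the range of DAC+ATRA. The DAC effect of 1.48 (95% interval 0.57 to 2.40, limma adjusted p = 0.0262) missed the threshold. Without DAC replicate 3, the lowest of the DAC libraries, it was 1.79 (adjusted p = 0.00949). CXCR1 entered the test only through libraries with DAC, so the filter itself favoured a high DAC level in both fits.

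CXCR2 measured 432, 388 and 389 normalised counts in untreated libraries, 642, 475 and 631 with DAC, 660, 624 and 614 with ATRA, and 720, 666 and 731 with DAC+ATRA. Every treated library lay above every untreated one, and the DAC+ATRA libraries lay above all others. DAC raised it 1.43-fold (log2 fold change 0.52, SE 0.12, limma adjusted p = 0.00674). ATRA raised it 1.57-fold (0.65, adjusted p = 0.000315), and the combination 1.75-fold (0.81, adjusted p = 3.19e-05). DAC+ATRA was not separated from ATRA alone by the test (0.16, 95% interval -0.10 to 0.41). CXCR1 and CXCR2 are paralogs too, with 1 transcript row each.

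CXCR4, the CXCL12 receptor, rose with DAC and fell with ATRA. It stood at 420, 453 and 416 normalised counts in untreated libraries, 860, 787 and 677 with DAC, 108, 205 and 143 with ATRA, and 235, 189 and 190 with DAC+ATRA. The DAC libraries were the highest and all 6 ATRA-containing libraries the lowest, with ATRA and DAC+ATRA overlapping. DAC raised CXCR4 by 0.84 on the log2 scale (SE 0.18, limma adjusted p = 0.00309), a 1.79-fold increase. ATRA lowered it by 2.90-fold (log2 fold change -1.54, adjusted p = 1.25e-06), and DAC+ATRA by 2.10-fold (-1.07, adjusted p = 8.99e-05). DAC+ATRA against ATRA gave 0.47 (95% interval 0.09 to 0.84, adjusted p = 0.0731), and 0.71 without ATRA replicate 2 (adjusted p = 0.00681). Transcript ENST00000241393.4 held 92.1% to 96.6% of the CXCR4 level in the 4 groups.

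The CC chemokine receptors rose with ATRA, against the direction of the complement receptors. CCR1 measured 939, 904 and 836 normalised counts in untreated libraries, 579, 488 and 753 with DAC, 8525, 7617 and 7360 with ATRA, and 5374, 5172 and 5031 with DAC+ATRA. The groups did not overlap, with the order ATRA, DAC+ATRA, untreated, DAC. ATRA raised CCR1 8.76-fold (log2 fold change 3.13, SE 0.13, limma adjusted p = 2.91e-13). DAC+ATRA raised it 5.81-fold (2.54, adjusted p = 8.48e-12).

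DAC lowered CCR1 both without ATRA, by 1.49-fold (log2 fold change -0.58, adjusted p = 0.00378), and with it, by 1.51-fold (-0.59, adjusted p = 0.00224). The second of these calls was lost without ATRA replicate 1 (adjusted p = 0.0116), DAC+ATRA replicate 2 (0.0122) or DAC+ATRA replicate 3 (0.0144), with log2 fold changes of -0.53 to -0.59.

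CCR2 stood at 495, 525 and 467 normalised counts in untreated libraries, 435, 343 and 450 with DAC, 3467, 3532 and 3573 with ATRA, and 2522, 2180 and 2104 with DAC+ATRA. Again the 4 groups did not overlap, in the same order as for CCR1. The increase was 7.10-fold with ATRA (log2 fold change 2.83, SE 0.11, limma adjusted p = 3.04e-13) and 4.56-fold with DAC+ATRA (2.19, adjusted p = 1.71e-11). DAC+ATRA lay 1.56-fold below ATRA alone (-0.64, adjusted p = 0.00049). DAC by itself gave -0.28 (95% interval -0.52 to -0.04, adjusted p = 0.105). Of 3 transcript rows, ENST00000445132.2 held 98.8% to 99.1% of the CCR2 level in each group.

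**Figure D2:**
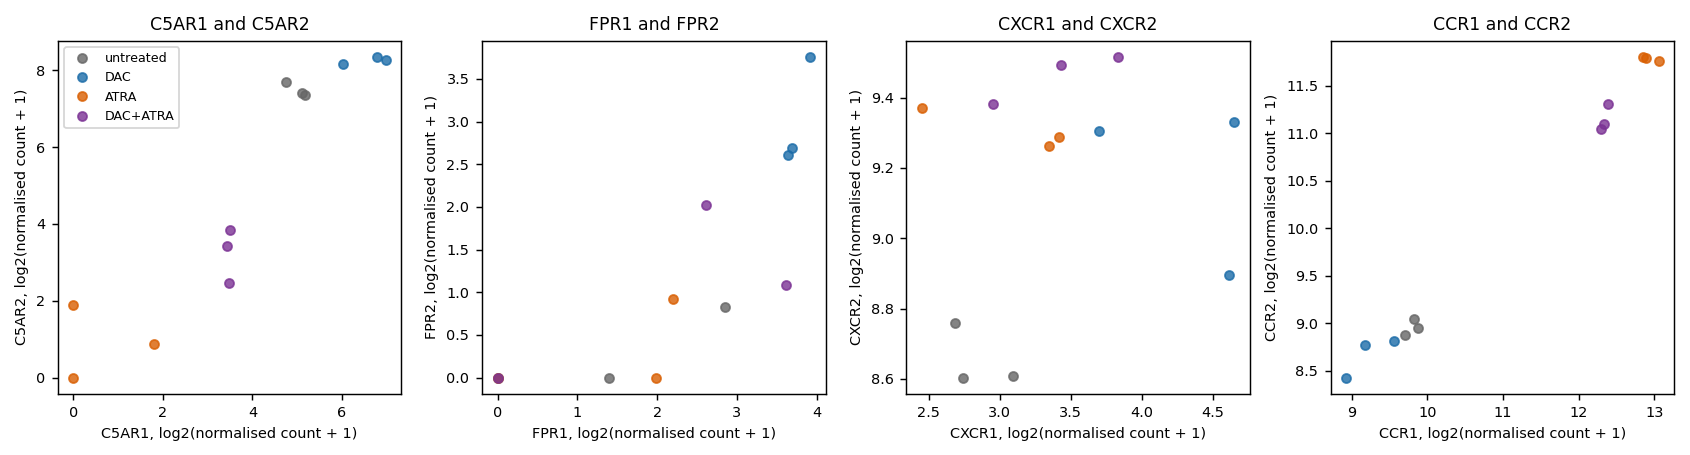
Each point is 1 library, with log2(normalised count + 1) of 1 receptor on the x axis and of its neighbour or paralog on the y axis, coloured by treatment. In the CCR1 and CCR2 panel the 3 ATRA libraries lie at the top right and the DAC+ATRA libraries next to them, while in the C5AR1 and C5AR2 panel the ATRA libraries lie at the bottom left and the DAC libraries at the top right.

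Counted over the 9 tested receptors, DAC changed 3 (CXCR2 and CXCR4 higher, CCR1 lower), where 7.97% of all genes tested were called in this comparison, 4.29% higher and 3.67% lower. All 3 DAC calls depended on single libraries. None was made without untreated replicate 1, untreated replicate 2 or DAC replicate 1, and 1 was made without untreated replicate 3 (CCR1) or DAC replicate 2 (CXCR2). With each of these libraries left out, the number of all genes called for DAC also fell, from 848 with all libraries. Fewer calls were therefore not particular to the receptors. Without these libraries in turn, log2 fold changes were 0.44 to 0.66 for CXCR2, 0.76 to 0.88 for CXCR4 and -0.43 to -0.63 for CCR1, with the same signs as in all libraries. The CXCR2 call was also lost without DAC replicate 3 (adjusted p = 0.0112), where CXCR4, CCR1 and CXCR1 were called, without ATRA replicate 2 (0.0109) and when any 1 DAC+ATRA library was left out (0.0107 to 0.0119).

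ATRA changed 7 of the 9, with CXCR2, CCR1 and CCR2 higher and C3AR1, C5AR1, C5AR2 and CXCR4 lower, against 26.0% of all genes, 12.1% higher and 14.0% lower. DAC+ATRA against untreated changed 7 receptors in the same directions, against 28.9% of all genes, 14.5% higher and 14.4% lower. The 2 counts share the untreated libraries. Leaving out FPR1 and CXCR1, which entered the test only through libraries with DAC, the median log2 fold change of the other 7 was 0.52 with DAC, -1.54 with ATRA and -1.07 with DAC+ATRA, against -0.00, -0.04 and -0.00 over all genes tested. With FPR1 and CXCR1 included it was 0.77, -0.02 and 0.57, and these 2 near-floor genes themselves supply the last 2 values. The 7 hold 3 receptors that rose and 4 that fell with ATRA, so that no single median describes them.

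What each drug added to the other was read from the 2 remaining contrasts. DAC+ATRA against DAC, the ATRA effect in the presence of DAC, changed 6 of 9 receptors, CCR1 and CCR2 higher and C3AR1, C5AR1, C5AR2 and CXCR4 lower, against 18.8% of all genes, 9.04% higher and 9.74% lower. The log2 fold changes there were 3.12 for CCR1, 2.47 for CCR2, -2.36 for C3AR1, -3.13 for C5AR1, -5.02 for C5AR2 and -1.92 for CXCR4. CXCR2 gave 0.29 (95% interval 0.03 to 0.54, limma adjusted p = 0.0885). DAC+ATRA against ATRA, the DAC effect in the presence of ATRA, changed 4 of 9, with C5AR1 and C5AR2 higher and CCR1 and CCR2 lower, against 11.9% of all genes, 6.47% higher and 5.46% lower.

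The DAC effect without ATRA and the DAC effect with ATRA come from separate libraries. FPR1 and CXCR1 are left out of the counts that follow, since the filter itself favoured a high DAC level for them. The signs of the DAC effects were the same for the other 7 of 7 receptors, and for 69.2% of all genes tested. The ATRA effect without and with DAC had the same sign for 7 of 7, and for 76.6% of all genes. Small differences enter these counts with the same weight as large ones.

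**Figure D3:**
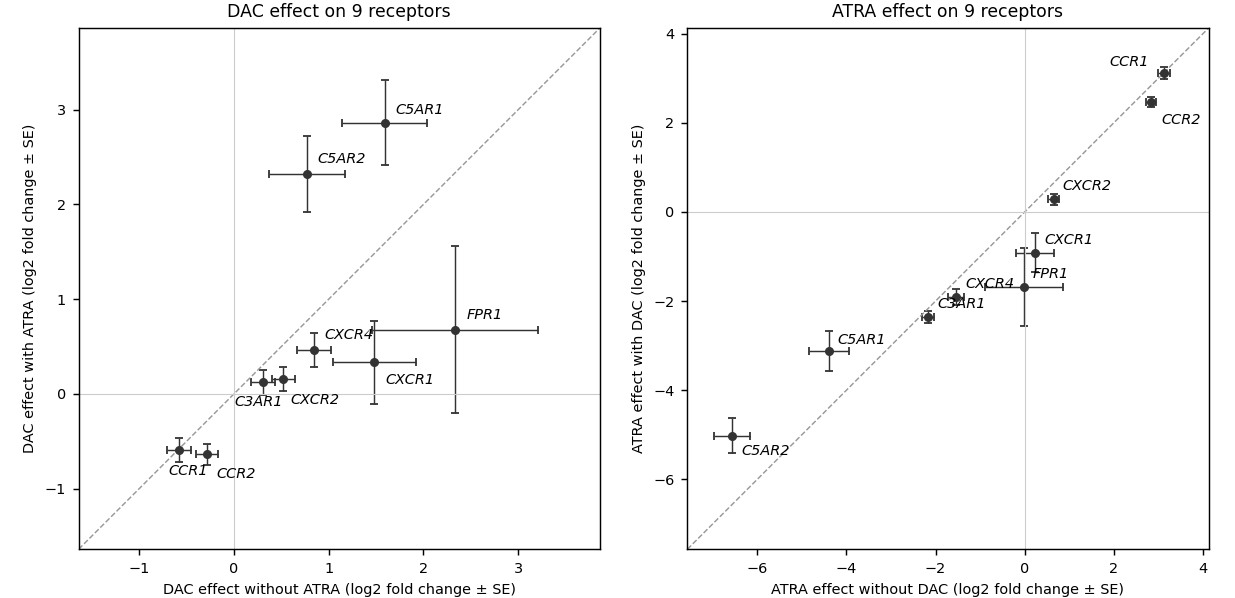
Log2 fold changes ± SE of the 9 tested receptors, with the DAC effect without ATRA against the DAC effect with ATRA on the left, and the ATRA effect without DAC against that with DAC on the right. The dashed line marks equal effects. C5AR1 and C5AR2 lie above it, at 1.59 and 2.86 and at 0.77 and 2.32 on the left. For each receptor the vertical distance from the line is by construction the same in both panels. That distance did not pass the test for any receptor.

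The interaction asked whether DAC changed a receptor more, or less, in cells that also had ATRA (a positive value means more upward). It was called for 0 of 9 receptors with limma, edgeR and DESeq2, against 1.60% of all genes with limma (0.724% positive and 0.874% negative). At an unadjusted p under 0.05, limma gave 2, C5AR2 and CCR2. The C5AR2 interaction was 1.55 (95% interval 0.37 to 2.73, limma adjusted p = 0.166) and that of CCR2 -0.36 (interval -0.69 to -0.02, adjusted p = 0.308). For CCR1 it was -0.01 with an interval of -0.39 to 0.36, and for C3AR1 -0.19 with an interval of -0.57 to 0.19. For C5AR1, at 0 to 3 reads per ATRA library, the interval ran from -0.05 to 2.60, and the estimate turned from 1.27 to -0.09 with a pseudocount of 5. No departure from additive change on the log2 scale was therefore detectable for these receptors at this depth and number of libraries.

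The genes whose pattern over the 12 libraries was most like that of a called receptor were listed by Pearson r of log2(normalised count + 1). CCR1 and CCR2 were each other's nearest gene (r = 0.996), followed by HIC1 for CCR1 (0.996) and RAB20 for CCR2 (0.995). Those of C5AR2 were MTSS2 (0.991) and F13A1 (0.988), and those of C5AR1 were FEZ1 (0.979) and EPX (0.973). C3AR1 was followed by SNX20 (0.990) and SCCPDH (0.990), CXCR4 by ALDH3B1 (0.978) and PDE4D (0.976), and CXCR2 by FCER1G (0.959) and SRA1 (0.959). With 4 groups of 3 libraries, these values mostly describe the order of the group means.

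Among 23 related receptors, 8 were tested. DAC changed 0 of them with limma, edgeR and DESeq2 (4 at an unadjusted limma p under 0.05), and at most 2 under any alternative setting. With limma, 7.97% of all genes tested were called for DAC. ATRA and DAC+ATRA each raised 5, among them CCR3, CX3CR1 and the leukotriene B4 receptors LTB4R and LTB4R2, the last pair named here after their values were seen. Over all genes tested, 12.1% were called higher with ATRA and 14.5% with DAC+ATRA. The median log2 fold change of the 8 was 0.37 with DAC, 0.90 with ATRA and 1.44 with DAC+ATRA, against -0.00, -0.04 and -0.00 over all genes. CCR3, the eotaxin receptor, had a mean of 0.987 in untreated and 0.363 in DAC libraries, 80.2 ± 21.9 (SD, n = 3) with ATRA (limma log2 fold change 5.49, adjusted p = 5.93e-08) and 45.8 ± 15.7 with DAC+ATRA (4.67). Counted among the 5 raised, CCR3 passed the filter only through libraries with ATRA, in which it was high. CX3CR1, the fractalkine receptor, rose from 44.4 ± 14.7 to 190 ± 35.9 with ATRA (2.12, adjusted p = 8.21e-07) and to 143 ± 12.1 with DAC+ATRA. CCR1, CCR2 and CCR3, all of which rose with ATRA, belong to the chemokine receptor cluster on chromosome 3.

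Of 26 ligands and ligand precursors listed for these receptors, 9 were tested. DAC raised 2 (ANXA1, an FPR2 ligand, and C3) and lowered 1 (CXCL8). ATRA raised 5 and lowered 4, and DAC+ATRA raised 3 (C5, CCL2 and CXCL12) and lowered 2 (CXCL8 and HEBP1). CXCL12, counted as raised with ATRA and with DAC+ATRA, passed the filter only through libraries with ATRA. Over all genes, 4.29% were higher and 3.67% lower with DAC, 12.1% and 14.0% with ATRA, and 14.5% and 14.4% with DAC+ATRA. The median log2 fold change of the 9 was 0.20, 0.67 and 0.13, against -0.00, -0.04 and -0.00 over all genes. These genes too, apart from CCL2, lie outside the rule for named genes. CCL2, the main ligand of CCR2, measured 541, 447 and 344 normalised counts in untreated libraries, 461, 510 and 540 with DAC, 27313, 28630 and 22280 with ATRA, and 6337, 5692 and 5315 with DAC+ATRA. ATRA thus raised the ligand and its receptor in the same libraries, CCL2 by a log2 fold change of 5.89 (limma adjusted p = 1.52e-16). With DAC+ATRA the increase was 3.72, and the interaction of -2.37 passed the test (adjusted p = 1.94e-06).

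CXCL8, CXCL12, C3 and C5 were chosen after their values were seen, because each serves a receptor above. CXCL8 stood at 3272, 2548 and 2342 normalised counts in untreated libraries, 621, 794 and 1049 with DAC, 7884, 9548 and 7481 with ATRA, and 918, 669 and 636 with DAC+ATRA. DAC lowered it with and without ATRA (-3.50 and -1.75), ATRA alone raised it (1.62), and its interaction of -1.75 passed (adjusted p = 0.000299). CXCR2, its receptor, rose in all 3 treatments. CXCL12, the CXCR4 ligand, was at 0 in all untreated and DAC libraries and at 29.6 to 44.3 with ATRA and 22.4 to 40.8 with DAC+ATRA, the libraries in which CXCR4 was lowest.

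The complement precursors behaved differently from their receptors. C3, the source of C3a, was 241 ± 13.7 in untreated, 348 ± 28.4 with DAC, 112 ± 3.42 with ATRA and 265 ± 12.9 with DAC+ATRA (SD, n = 3). The DAC call for C3 (0.52, limma adjusted p = 0.00893) was lost in 14 of 24 alternative settings, among them leaving out any untreated library, DAC replicate 1 or 2, ATRA replicate 2 or 3, or any DAC+ATRA library (adjusted p 0.0103 to 0.0449). C3 fell with ATRA (-1.11, limma adjusted p = 1.18e-06), as C3AR1 did, but DAC+ATRA exceeded ATRA by 1.24 (adjusted p = 1.13e-06). C5, the source of C5a, rose from 176 ± 6.29 to 418 ± 37.5 with ATRA (1.24, adjusted p = 2.78e-07) and to 388 ± 38.3 with DAC+ATRA, where both C5a receptors were low. It was 178 ± 9.12 with DAC.

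**Figure D4:**
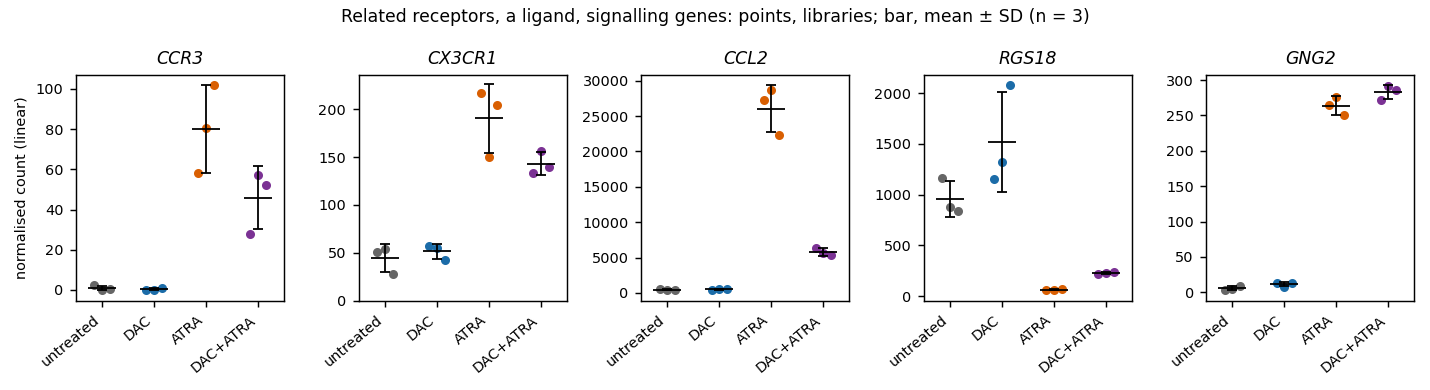
Normalised counts (linear y axes) per library of CCR3, CX3CR1, CCL2, RGS18 and GNG2, with bars for the mean ± SD of 3 libraries. All but RGS18 are higher in the ATRA and DAC+ATRA libraries than in the untreated and DAC libraries, CCL2 with DAC+ATRA reaches 5315 to 6337 against 22280 to 28630 with ATRA, and RGS18 is lowest with ATRA.

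Downstream of the receptors, 17 of 19 signal transduction genes (G protein subunits, phosphoinositide 3-kinase and phospholipase C isoforms, Rac and its exchange factors) were tested. DAC changed 0 with limma and edgeR, 2 with DESeq2 and 5 at an adjusted p under 0.05 (5 at an unadjusted limma p under 0.05). With limma, 7.97% of all genes tested were called for DAC. The number of all genes called was higher with edgeR, with DESeq2 and at an adjusted p under 0.05. ATRA raised 8 and lowered 2, and DAC+ATRA raised 7 and lowered 2, where 12.1% and 14.0% of all genes were higher and lower with ATRA, and 14.5% and 14.4% with DAC+ATRA. The median log2 fold change of the 17 was -0.04 with DAC, 0.64 with ATRA and 0.55 with DAC+ATRA, against -0.00, -0.04 and -0.00 over all genes. GNG2, a G protein gamma subunit, rose from 3.11, 4.87 and 9.41 normalised counts in untreated libraries to 265, 276 and 250 with ATRA (5.39, limma adjusted p = 2.13e-11) and 272, 292 and 286 with DAC+ATRA. Without its libraries with ATRA, GNG2 would not have passed the filter.

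All 16 genes of receptor desensitisation (receptor kinases, arrestins, trafficking genes and RGS proteins, which shut off G protein signals) were tested. DAC raised 1 (GRK6, named after its values were seen) and lowered 2 (RGS1 and RGS16), where 4.29% of all genes were higher and 3.67% lower. Without DAC replicate 3, 5 genes of the list were called. The number of all genes called for DAC also rose in that setting, so the rise was not particular to this list. ATRA and DAC+ATRA each raised 5 and lowered 3. The all-gene shares were 12.1% higher and 14.0% lower with ATRA, and 14.5% and 14.4% with DAC+ATRA, so the share that fell was near that of all genes. RGS genes moved both ways: RGS2 (1.31), RGS10 (1.34) and RGS14 (1.09), named after their values were seen, rose with ATRA alone, and RGS1, RGS16 and RGS18 fell. RGS1 fell with every treatment, from 366 ± 66.7 in untreated to 58.6 ± 25.6 with DAC (-2.71, limma adjusted p = 3.65e-06), 102 ± 21.2 in ATRA (-1.83) and 13.4 ± 3.98 in DAC+ATRA libraries (-4.70). RGS16 fell from 572 ± 28.6 with DAC to 98.9 ± 23.7 (-2.55, adjusted p = 7.76e-09), and was 293 ± 45.6 in ATRA and 184 ± 22.9 in DAC+ATRA libraries. In the presence of DAC, ATRA raised RGS16 (0.91, limma adjusted p = 0.000457), and the RGS16 interaction of 1.88 passed (adjusted p = 0.000116). RGS18 had the order of means of C5AR2, with 959 ± 179 in untreated, 1519 ± 493 with DAC, 61.3 ± 5.00 with ATRA (-3.93, adjusted p = 1.57e-12) and 230 ± 12.5 with DAC+ATRA. The RGS18 interaction of 1.26 passed (limma adjusted p = 0.0060), a call that 13 of 23 alternative settings lost.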

How the data were processed

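RNA of 12 MOLM-13 libraries was measured by stranded total RNA-seq after depletion of ribosomal RNA. Per the labels, the authors used STAR for alignment (hg38), HTSeq for counting and DESeq2 for normalisation (versions and annotation release not given in the sources used here). The deposited values are a normalised signal per transcript row (100502 rows): reads over a size factor per library. Dividing by the step of each library gave whole reads, within 0.01 read, for 100% of values, and these recovered reads served the count tests. Columns named CTRL were taken as untreated. Rows were summed per symbol. Biotypes and coordinates came from GENCODE release 44, which matched 88.9% of rows. How reads shared between listed transcripts were counted is not given in the sources used here. If they were left out, levels are lower limits, and the shares given for single transcripts rest only on reads unique to each. Levels are not compared between genes.

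Differences were tested with limma 3.58.1 under R 4.3.3, by lmFit and eBayes with trend, on log2(normalised count + 1), with all 12 libraries in 1 fit and 1 coefficient per group. Genes entered if protein-coding and at or above 10 normalised counts in 3 or more libraries. P-values were adjusted by Benjamini-Hochberg over all 10642 within each of 6 comparisons, and calls were made under 0.01. Fold changes on this scale understate the changes of low genes. Ratios of genes at a few reads carry exact 95% intervals that cover counting error only. Alternatives were edgeR 4.0.16 and DESeq2 1.42.0 on recovered reads, TMM and total-count scaling, pseudocounts of 0.1 and 5, other filters and thresholds, all symbols, only the compared groups, a replicate block and leaving out each library. They were applied to the other named genes and list counts after seeing the data. The scripts were tested on simulated data.

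Named genes were the receptors, genes of the 4 lists called against untreated with a mean of at least 50 normalised counts in a group and an absolute log2 fold change over 2 there, and the 2 genes most like each called receptor. A gene that met this rule is not reported here. The receptors, lists and rule were chosen with earlier results of these data known. Promoters and CpG positions came from RefSeq (all 10 receptors matched).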

Additional observations from a re-analysis of the deposited data

How the results depend on the processing

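Of 1275 values of single receptors recomputed under the alternatives, 1212 kept direction and side of the threshold, 39 lost the threshold, 10 gained it and 14 changed sign. The receptors called for ATRA against untreated (7), DAC+ATRA against DAC (6) and the interaction (0) kept these numbers when any library was left out, DAC+ATRA against untreated gave 6 to 7 and DAC+ATRA against ATRA 3 to 5. For DAC against untreated (3) the number was 5 with edgeR, 5 with DESeq2, 5 at an adjusted p under 0.05, 1 with only the compared groups (CXCR4) and 0 to 4 when leaving out 1 library. The number of all genes called for DAC was also higher with edgeR, with DESeq2 and at an adjusted p under 0.05. It was lower with only the compared groups. The sign changes concerned FPR1, the CCR1 interaction and the C5AR1 interaction, none of them called. In the main fit FPR1 was -0.02 with ATRA, 0.66 with DAC+ATRA and 0.68 in DAC+ATRA against ATRA. The main interactions were -0.01 for CCR1 and 1.27 for C5AR1. FPR1 with ATRA was 0.00063 with TMM scaling and 0.019 with a pseudocount of 0.1, the CCR1 interaction was 0.042 with total-count scaling and the C5AR1 interaction -0.086 with a pseudocount of 5. Without single libraries, FPR1 ranged from -0.73 to 0.70 with ATRA, from -0.11 to 1.70 with DAC+ATRA and from -0.091 to 1.72 in DAC+ATRA against ATRA, and the CCR1 interaction ranged from -0.16 to 0.16. C5AR1 in DAC+ATRA against DAC was lost with a pseudocount of 0.1 (adjusted p = 0.0108). The cause was not tested.

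Same-numbered libraries of different groups did not deviate together (r from -0.263 to 0.114 over 18 pairs, 2 over 0.1). With 3 libraries per group this cannot exclude a pairing. Libraries within a group were not equally alike by chi-square per degree of freedom, a measure of difference beyond counting error. Between replicates 1 and 2 it was 4.61 in untreated and 5.03 in DAC libraries, but 22.0 to 33.8 in their pairs with replicate 3. In ATRA libraries it was 7.90 between replicates 2 and 3, and 23.7 and 24.5 in pairs with replicate 1. With a replicate block the number of receptors called was 3 for DAC, 7 for ATRA, 6 for DAC+ATRA against untreated (C5AR1 lost, limma adjusted p = 0.0123), 6 against DAC, 4 against ATRA and 0 for the interaction. Depth limits FPR1, FPR2, CXCR1 and, with ATRA, C5AR1 and C5AR2, where few reads carry each value.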
